A study of Mus musculus and Rattus norvegicus with 37 samples.

Results

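The genes described here encode the core of the basement membrane: the collagen IV chains Col4a1, Col4a2 and Col4a5, the laminin chains Lama2, Lama4, Lamb1 and Lamc1, the nidogens Nid1 and Nid2, and the proteoglycan perlecan (Hspg2). They are 10 members, found by their gene symbol among 47929 named entries of the mouse tables and 28026 of the rat tables. All 10 were listed in mice and 9 in rats, where no entry carried the symbol Hspg2.

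RNA-seq of 37 livers was used, 21 from mice and 16 from rats. The WT/Floxed mice received LNA29 (n = 8) or saline (n = 5) and pooled 7 WT C57BL/6J females of 9 to 11 weeks with 6 floxed females of 15 to 20 weeks. The mice labelled SIRT1KO, littermates of the floxed mice with a liver-specific knockout of Sirt1, received LNA29 (n = 4) or saline (n = 4). LNA29 is a pair of inhibitors of miR-29 made of locked nucleic acid, given under the skin in 1 dose at 20 mg/kg each, and livers of fed mice were taken on day 7. The rat groups, all male, were fa/fa Zucker Fatty rats (ZFR, n = 4) and Zucker Lean rats (ZLR, n = 4) of 5.5 months, and ZFR of 3 months that received BT2, an inhibitor of the kinase that restrains branched-chain ketoacid breakdown, at 20 mg/kg daily for 1 week (n = 4) or dimethylsulfoxide vehicle (n = 4). Mouse controls received saline and no scrambled LNA. Age cannot be told apart from the WT or floxed background.

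Basement membranes are thin sheets of matrix on which epithelial and endothelial cells rest and which wrap muscle and nerve. Laminin trimers of an α, a β and a γ chain form a first network, collagen IV trimers form a covalently linked second network, and nidogens and perlecan tie both together. The hepatic sinusoid is known for lacking a continuous basement membrane, although its cells make collagen IV, laminin and nidogen, and mRNAs of matrix collagens are the classic targets of miR-29, which binds the 3′ UTR through its seed, bases 2 to 8 of the mature miRNA.

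The mature sequences of the family are shown because LNA29 is directed at them. They come from RefSeq (GRCm38.p6), and capitals mark the seed. miR-29a-3p and the copy of miR-29b-3p from Mir29b-1 lie on chromosome 6, and miR-29c-3p and the copy from Mir29b-2 lie on chromosome 1.
mmu-miR-29a-3p: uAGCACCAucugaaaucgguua
mmu-miR-29b-3p: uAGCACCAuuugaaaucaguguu
mmu-miR-29c-3p: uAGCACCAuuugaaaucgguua
All 3 share 1 seed. The letters that pair with it are TGGTGCT. When an A follows, TGGTGCTA is an 8-base match that contains the 7-base one, and that A lies opposite base 1, outside the seed.

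These letters were looked for on the sense strand of the annotated 3′ UTR of 1 transcript per gene (GENCODE M21, GRCm38). Of the 10 members, 4 hold them, in 7 places: Col4a5 has 3 matches, Col4a2 has 2, and Col4a1 and Lamc1 have 1 each. Among all 20967 genes with an annotated 3′ UTR, 12.2% hold at least 1 match, 2.7% hold an 8-base match and 0.358% hold 3 or more. The 7 matches are printed with the 16 bases before each. Capitals mark the letters that pair with the seed and, in an 8-base match, the A that follows them.
Col4a1, chr8:11199761-11199784, minus strand: tgccaccgtcacaacaTGGTGCTA
Col4a2, chr8:11448343-11448366, plus strand: tgtgggaaggccacgtTGGTGCTt
Col4a2, chr8:11448514-11448537, plus strand: gccaccacacccagctTGGTGCTt
Col4a5, chrX:141688237-141688260, plus strand: ccactgctcccaccaaTGGTGCTA
Col4a5, chrX:141688518-141688541, plus strand: gaagtattctttttcaTGGTGCTA
Col4a5, chrX:141688941-141688964, plus strand: ataattcttattattcTGGTGCTA
Lamc1, chr1:153220068-153220091, minus strand: ctattatctgacacacTGGTGCTA
The Col4a1 match starts 32 bases after the stop codon and the first Col4a2 match 42 bases after it, whereas the Lamc1 match starts 1397 bases into its 3′ UTR. No member among Lama2, Lama4, Lamb1, Nid1, Nid2 and Hspg2 holds TGGTGCT in any annotated coding transcript's 3′ UTR, and the UTRs of Lama2, Lama4 and Lamb1 are short in this annotation (210, 155 and 151 bases, against a median of 848 over all genes). The shorter match GGTGCTA, with no pairing at base 8, occurs 1 more time in each of Col4a1, Nid2 and Hspg2. Among all genes with an annotated 3′ UTR, 3.77% hold such a further match.

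Col4a1 (chr8:11198423-11312826, minus strand) and Col4a2 (chr8:11312805-11449287, plus strand) lie head to head, and their annotated starts overlap by 22 bases. The other members lie apart: Col4a5 on chromosome X, Lama2 and Lama4 on chromosome 10, Lamb1 on 12, Lamc1 on 1, Nid1 on 13, Nid2 on 14 and Hspg2 on 4. Some members share bases with annotated antisense genes (Col4a1, Col4a2, Lama2, Nid1) or, for Nid2, with 437 bases of Rtraf on the other strand. Whether counting used strand is not given in the sources used here.

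All values are normalized counts, that is, Salmon gene counts divided by the size factors of the authors, within 1 table per comparison. The mouse libraries held an estimated 42.6 to 77.9 M reads, and 1 read was worth 0.746 to 1.37 normalized counts. In rats the depth ran from 0.185 to 57.2 M reads, and 1 read was worth up to 10.5 normalized counts. Sirt1 did not separate the genotypes: its normalized count was 591 ± 81.2 (SD, n = 5) in saline-treated WT/Floxed mice and 586 ± 30.6 (n = 4) in saline-treated mice labelled SIRT1KO, in tables normalized separately, and gene counts do not separate exons. The study also measured hepatic Sirt1 in these genotypes by RT-qPCR, which is not used here.

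Per kilobase of the annotated transcript, Col4a1 and Col4a2 had the highest means in all 4 mouse groups. Col4a2 overlapped Nid1, the next gene, in range in each group. In saline-treated mice labelled SIRT1KO they were nearly level, at 169 ± 20.1 and 167 ± 12.2 normalized counts per kb (SD, n = 4). In saline-treated WT/Floxed mice Col4a1 stood at 345 ± 107 normalized counts per kb (SD, n = 5), Col4a2 at 182 ± 52.5 and Nid1 at 158 ± 18. Lamb1 (111 ± 29.7), Lamc1 (109 ± 8.34), Nid2 (97.9 ± 23.1) and Hspg2 (72.5 ± 7.68) followed. Lama4 (37.7 ± 5.71), Col4a5 (26.5 ± 3.04) and Lama2 (10.2 ± 2.08) were lowest. Along this order each gene from Col4a1 to Nid2 overlapped its neighbour in range across the 5 mice, and the ranges parted below Hspg2, below Lama4 and below Col4a5. The β chain Lamb1 and the γ chain Lamc1 thus stood above both α chains in level per kb, also in mice labelled SIRT1KO (130 and 126 against 50.8 for Lama4 and 9.65 for Lama2).

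**Figure D1:**
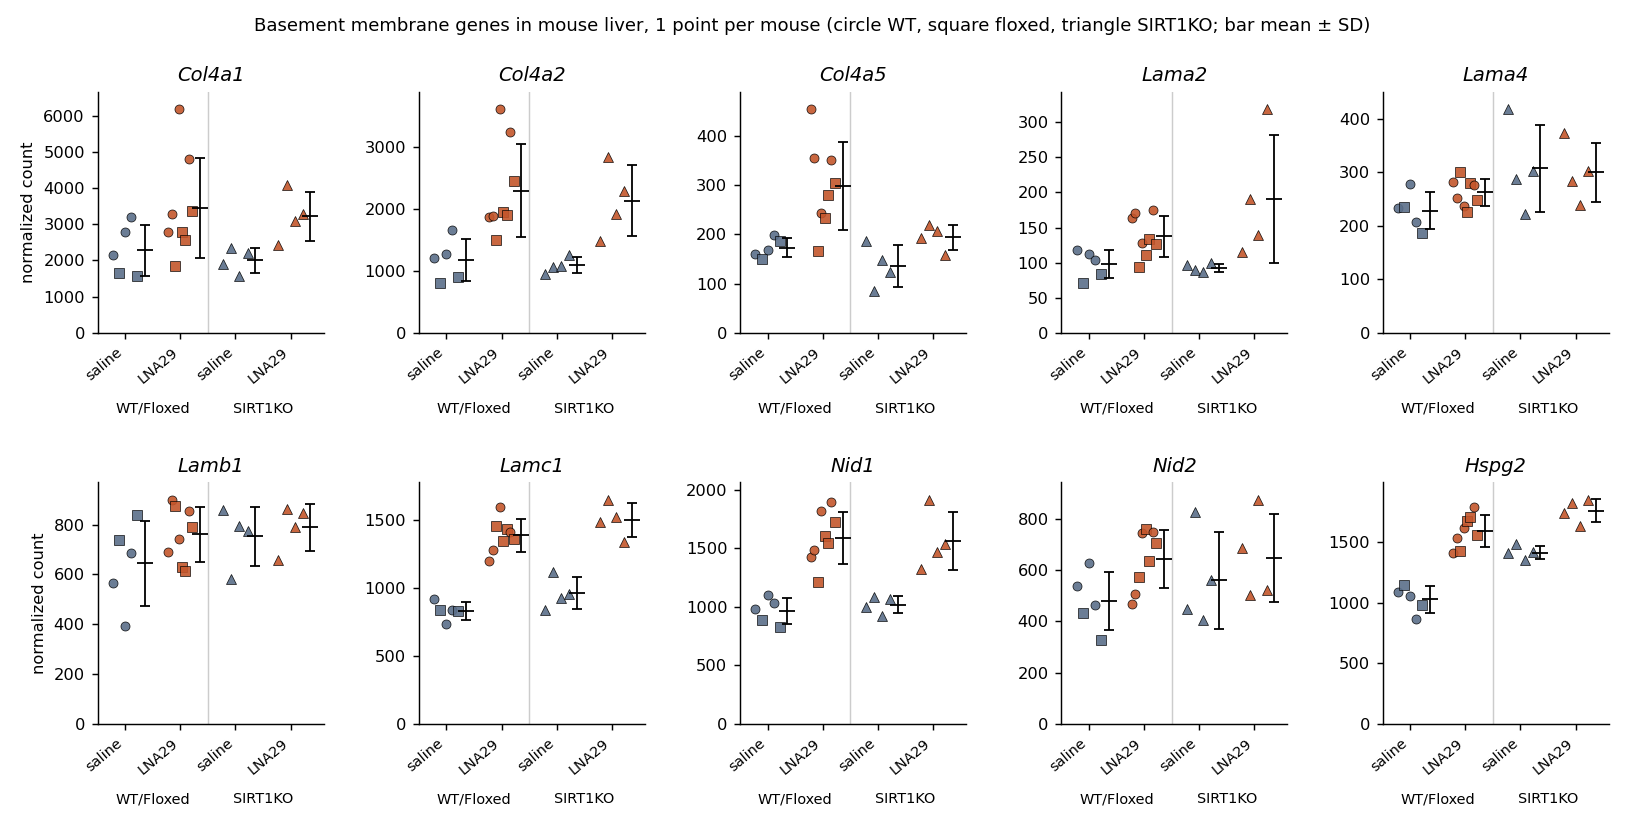
Normalized counts (vertical axis, linear, from 0) of the 10 members in each mouse, by genotype and treatment; bars show mean ± SD (n = 5, 8, 4 and 4 from left to right in each panel). In both genotypes all LNA29-treated mice lie above all saline-treated mice for Lamc1, Nid1 and Hspg2, while Lama4 and Lamb1 overlap broadly.

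LNA29-treated WT/Floxed mice were compared with saline-treated ones to ask which of these genes respond to loss of miR-29 function. All 10 members had a positive log2 fold change, with a median of 0.60 against 0.00 over all 15811 genes tested. Of them 5 passed the criteria used for mice (p under 0.05, adjusted p under 0.2, mean above 50 and fold above 1.2) and rose: Col4a2, Lamc1, Col4a5, Nid1 and Hspg2. None fell. Over all tested genes 2.42% were called higher and 1.93% lower by the same criteria. Genes with a mean between 10 and 50 count in such shares, in both genotypes, but could not be called. Every member had a mean above 50. At an unadjusted p under 0.05, 8 members were higher and none lower, against 6.82% and 6.5% of all genes. Among WT mice alone 3 members passed (Lamc1, Nid1 and Hspg2), and among floxed mice alone 6. Calls over all genes differed between these subsets too. Among WT mice alone 56 of 15849 were called higher, and among floxed mice alone 507 of 15747.

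Col4a2, which supplies 1 of the 3 chains of the common collagen IV trimer, rose most. Its normalized count in the 8 LNA29-treated mice had a lowest value of 1494, a median of 1924 and a highest of 3612, and the saline-treated mice had 1205, 809, 1282, 1664 and 904. Only 1 LNA29-treated mouse, a floxed one, lay within the saline range. The log2 fold change was 0.96 ± 0.22 (SE), with limma and Benjamini-Hochberg adjusted p = 0.0428.

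Col4a1, which supplies the other 2 chains of that trimer, had a normalized count of 1860 at the lowest, 3036 at the median and 6173 at the highest under LNA29, and of 2164, 1662, 2789, 3211 and 1579 under saline. The groups overlapped: 4 of the 8 LNA29-treated mice lay above every saline-treated mouse. Its log2 fold change of 0.56 ± 0.25 did not pass (limma adjusted p = 0.361, exact permutation p = 0.0785). Levels differed by background, since WT mice had 4261 ± 1535 (n = 4) under LNA29 and 2721 ± 527 (n = 3) under saline, and floxed mice 2641 ± 620 (n = 4) and 1620 ± 58.3 (n = 2). With the background as a covariate its log2 fold change was 0.63 and it passed (adjusted p = 0.104), as did Lama2 and Nid2, so that 8 members were then called. Over all 15811 genes tested 552 were called higher with this covariate, against 383 without it.

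Col4a5, a chain of the specialised trimers of kidney and other epithelia, was the member with the most seed matches. Its normalized count was 166 at the lowest, 292 at the median and 454 at the highest under LNA29, against 159, 151, 169, 200 and 187 under saline. Again 1 floxed LNA29-treated mouse lay within the saline range, and 7 of 8 lay above it. The log2 fold change was 0.73 ± 0.20 (limma adjusted p = 0.0906).

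Lamc1, the γ chain of most laminin trimers, separated the groups most cleanly. Its normalized count ran from 1199 through a median of 1387 to 1596 under LNA29, and was 915, 837, 735, 835 and 827 under saline. No value overlapped, and the log2 fold change was 0.72 among WT mice alone and 0.75 among floxed mice alone. The log2 fold change was 0.74 ± 0.08 (limma adjusted p = 0.000167). Lamb1, the β chain that pairs with it, did not pass: 613 to 897 under LNA29 and 392 to 839 under saline, with a log2 fold change of 0.27 ± 0.16 (adjusted p = 0.517). Within the floxed mice alone its log2 fold change was -0.13, and within the WT mice 0.57.

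Neither α chain passed. Lama2, known from muscle and nerve, had normalized counts of 94.4 to 175 under LNA29 and of 70.6 to 119 under saline, with a log2 fold change of 0.49 ± 0.18 (limma adjusted p = 0.228). Lama4, the α chain of vessel walls, had 226 to 300 and 187 to 279, with 0.21 ± 0.11 (adjusted p = 0.459). Both overlapped between treatments.

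Nid1 and Hspg2, a bridge between the networks and a heparan sulphate proteoglycan, also did not overlap. Nid1 ran from 1215 through a median of 1572 to 1893 normalized counts under LNA29 and was 981, 883, 1099, 1031 and 827 under saline. Hspg2 ran from 1411 through 1590 to 1794 under LNA29 and was 1085, 1150, 1054, 865 and 983 under saline. Their log2 fold changes were 0.71 ± 0.11 (limma adjusted p = 0.00379) and 0.63 ± 0.08 (adjusted p = 0.0015). Nid2, the second nidogen, had 468 to 760 under LNA29 and 327 to 627 under saline, and its log2 fold change of 0.44 ± 0.16 did not pass (adjusted p = 0.23). Groups that do not overlap, with LNA29 higher, were seen for these 3 members (Lamc1, Nid1 and Hspg2) and for 0.942% of all genes tested.

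In mice labelled SIRT1KO the comparison asks whether the response is also present without hepatic Sirt1. Of the 10 members 9 had a positive log2 fold change, with a median of 0.58 against 0.00 over all 15885 genes tested. Again 5 were called higher and none lower, against 1.19% of all genes called higher: Col4a2, Col4a1, Lamc1, Nid1 and Hspg2. The groups did not overlap for these 5 and for Lama2, that is for 6 members, against 3.65% of all genes. No member had groups apart in the lower direction (3.3% of all genes). At an unadjusted p under 0.05, 7 were higher and none lower, against 6.3% and 4.9%. With 4 mice against 4 the exact permutation test cannot go below 0.0286, the value these 6 members had.

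Col4a2 had normalized counts of 1483, 2841, 1926 and 2301 under LNA29 and of 951, 1068, 1084 and 1265 under saline. Col4a1 had 2419, 4078, 3089 and 3274 under LNA29 and 1915, 2352, 1559 and 2205 under saline. In both genes the second LNA29-treated mouse was highest and the first lowest. Their log2 fold changes were 0.94 ± 0.18 (limma adjusted p = 0.0892) and 0.67 ± 0.17 (adjusted p = 0.186).

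Lamc1 had 1481, 1642, 1516 and 1339 normalized counts under LNA29 and 838, 1116, 927 and 955 under saline, with a log2 fold change of 0.64 ± 0.11 (limma adjusted p = 0.0603). Nid1 had 1325, 1908, 1467 and 1536 against 1001, 1084, 920 and 1067, with 0.60 ± 0.12 (adjusted p = 0.0958). Hspg2 had 1737, 1819, 1635 and 1845 against 1406, 1482, 1350 and 1417, with 0.31 ± 0.08 (adjusted p = 0.181). Every LNA29-treated mouse lay above every saline-treated mouse in these 3 genes, though the gap was narrow for Hspg2.

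Lama2 showed the widest spread. It had 115, 191, 139 and 318 normalized counts under LNA29 and 96, 89.5, 86.7 and 99.1 under saline, and its log2 difference of 0.92 ± 0.28 missed the criteria (limma adjusted p = 0.263). A single LNA29-treated mouse stood well above the others. Col4a5 had 159 to 219 under LNA29 and 84.5 to 186 under saline (log2 fold change 0.56 ± 0.23, adjusted p = 0.405). Nid2 (0.23 ± 0.25), Lamb1 (0.07 ± 0.14) and Lama4 (-0.02 ± 0.20) overlapped between treatments and had adjusted p-values of 0.776, 0.879 and 0.983.

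The calls in mice labelled SIRT1KO lay close to the limit. Leaving out 1 mouse in turn gave 1 to 5 members called, with 1 when LNA29 replicate 3 or 4 was left out and 3 without LNA29 replicate 2 or without saline replicate 2, 3 or 4, while the median log2 fold change stayed between 0.50 and 0.62. Over these 8 fits Col4a1 and Hspg2 each stayed called in 1, Col4a2 and Nid1 each in 6, and Lamc1 in all 8. With the flow cell as a covariate 2 members were called (Col4a2 and Lamc1), and at an adjusted p under 0.05 none was.

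**Figure D2:**
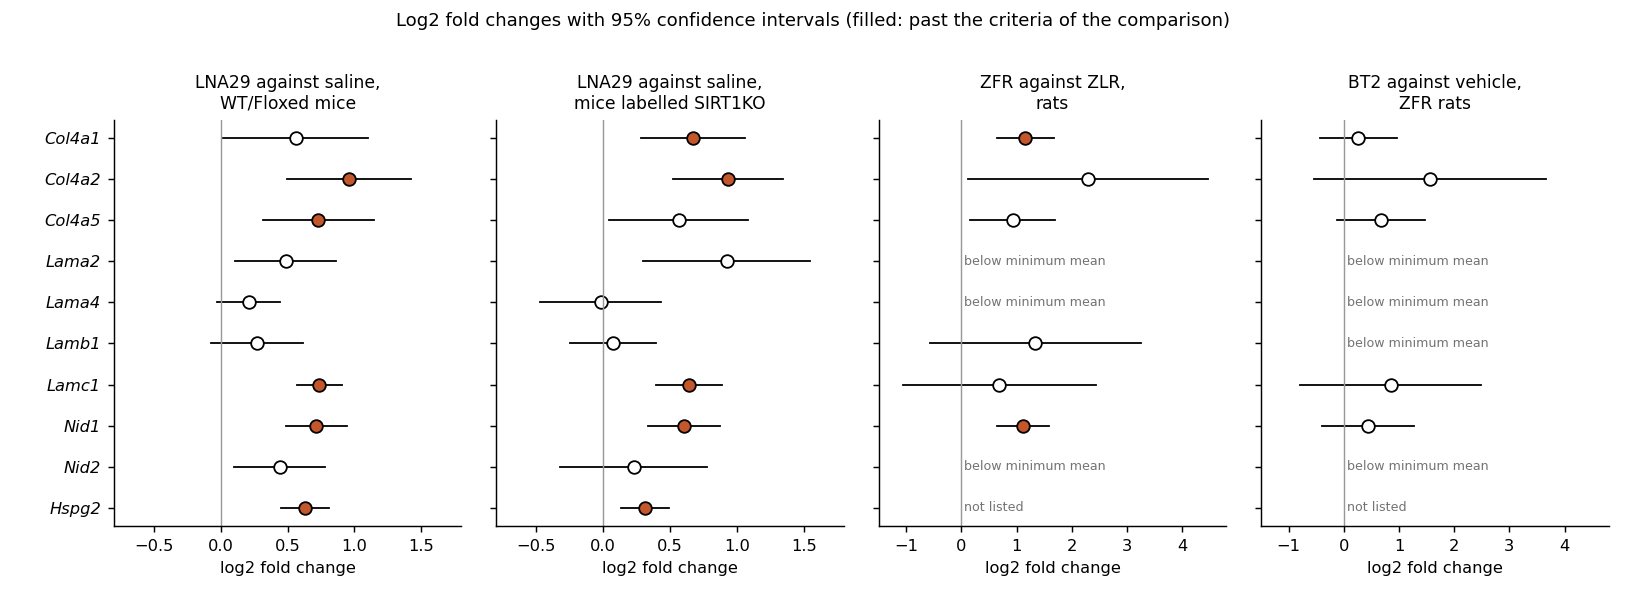
Log2 fold change (horizontal axis, on log2(normalized count + 1)) and 95% confidence interval of each member in the 4 comparisons, filled where the gene passed that comparison's criteria. Col4a2, Lamc1, Nid1 and Hspg2 are filled in both mouse panels, Col4a1 and Nid1 in the panel of ZFR against ZLR, and none in the BT2 panel.

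How far the response depended on genotype was tested with an interaction term. No member differed at an adjusted p under 0.2, and 7 of 15601 genes did, which is 0.0449%. At an unadjusted p under 0.05 the members that differed numbered 1, Hspg2, against 9.14% of all genes. Its log2 response was 0.32 smaller in mice labelled SIRT1KO, that is a difference of -0.32 (95% confidence interval -0.56 to -0.08, limma adjusted p = 0.393). For Col4a2 the difference was -0.02 (-0.70 to 0.66) and for Col4a1 0.11 (-0.66 to 0.88), intervals wide enough to hold differences as large as most of the responses. For Lamc1 it was -0.09 (-0.36 to 0.17) and for Nid1 -0.11 (-0.46 to 0.24). The tables were normalized separately, so these are differences of fold changes taken within each table. The WT/Floxed side pools WT mice with floxed mice, and only the floxed mice are littermates of those labelled SIRT1KO. Set against floxed mice alone, the difference was -0.26 for Hspg2, 0.21 for Lamb1 and -0.59 for Nid2. None of these passed (limma adjusted p = 0.495, 0.803 and 0.57).

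The ratio of partner genes within a liver is free of any factor that scales a whole library. The saline-treated WT/Floxed mice had Col4a1/Col4a2 ratios of 1.8, 2.06, 2.17, 1.93 and 1.75, and the LNA29-treated mice had a lowest ratio of 1.25, a median of 1.45 and a highest of 1.74. No LNA29-treated mouse reached the lowest saline-treated one, and this held within WT mice (1.48 to 1.74 against 1.8 to 2.17) and within floxed mice (1.25 to 1.42 against 1.75 to 2.06), although the highest LNA29 value and the lowest saline value of the pooled groups nearly touched. The log2 ratio fell by 0.40 (0.55 ± 0.17, SD, n = 8, against 0.95 ± 0.13, n = 5), with a two-sided exact permutation p of 0.00233 and 0.0373 after Benjamini-Hochberg adjustment over the 16 ratios compared (4 pairs in 4 comparisons). In mice labelled SIRT1KO the ratio was 1.63, 1.44, 1.6 and 1.42 under LNA29 and 2.01, 2.2, 1.44 and 1.74 under saline. The groups overlapped there through 1 saline-treated mouse, and the log2 difference of -0.26 did not pass (exact permutation p = 0.114). The other 14 ratios did not pass either (Nid1/Nid2, Lamb1/Lamc1 and Lama2/Lama4 in each comparison and Col4a1/Col4a2 in rats, adjusted p from 0.14 to 0.857).

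**Figure D3:**
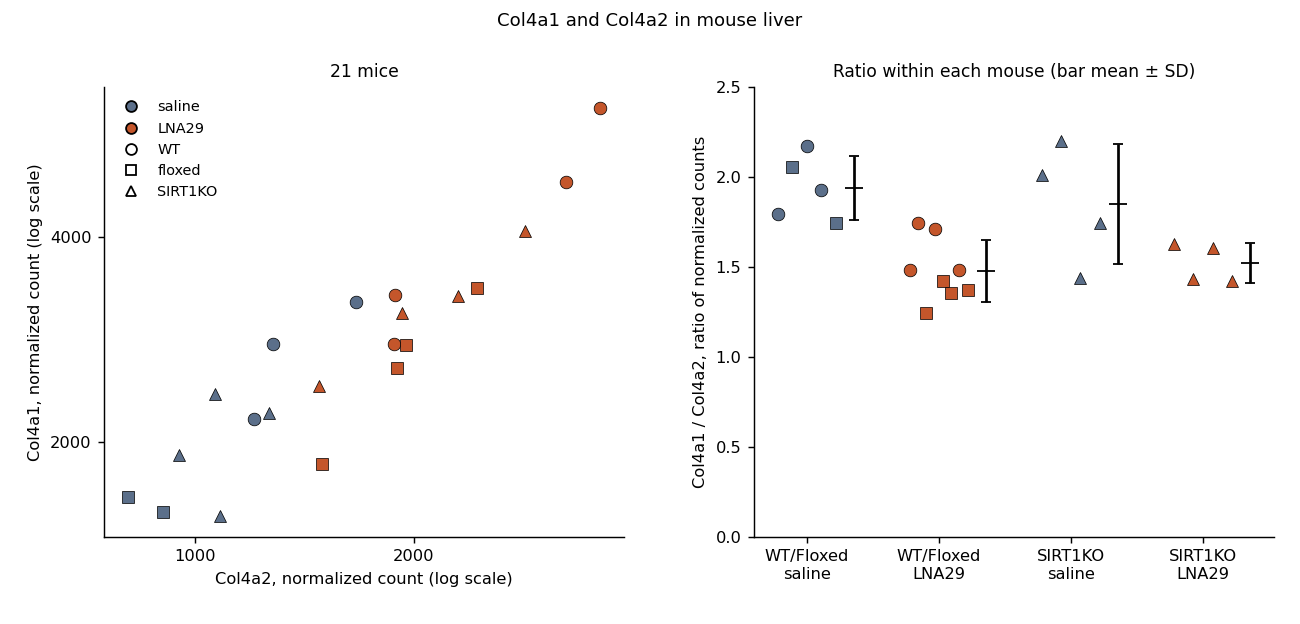
Left, Col4a1 against Col4a2 in 21 mice (normalized counts, both axes on a log scale); right, their ratio in each mouse by group with mean ± SD, from 0. Points rise together on the left, and on the right the LNA29-treated WT/Floxed mice (1.25 to 1.74) lie below the saline-treated ones (1.75 to 2.17).

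The members did not vary from mouse to mouse as 1 block. After the mean of its group was taken from each mouse, Col4a1 and Col4a2 had a Pearson correlation of 0.92 (Spearman 0.91), Col4a1 and Nid1 one of 0.88 (0.92), and Col4a2 and Nid1 one of 0.87 (0.89), over the log2 values of 21 mice. Of the other 42 pairs the highest was 0.52 (Col4a2 and Lama2), and the median of all 45 pairs was 0.15. Without the 2 mice farthest from the median of the first gene the 3 leading values were 0.89, 0.87 and 0.84. After means were taken by background as well they were 0.89, 0.90 and 0.83, and within the 8 mice labelled SIRT1KO they were 0.77, 0.95 and 0.85. Lamc1 and Hspg2, whose treatment groups like those of Nid1 did not overlap in either genotype, were not part of this trio: their correlations with Col4a1 were 0.25 and 0.17. The mice differ in age and flow cell, and the correlations are given as a description.

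Among the other 15600 genes that reached the minimum in each mouse table, Col4a2 ranked first by correlation with Col4a1. It was followed by Abca9 (r = 0.91), a lipid transporter of the ABC family, Abr (0.90), F2r (0.90), the thrombin receptor, and Csf2rb (0.90), a cytokine receptor subunit. Nid1 had rank 8 (0.88), whereas Lamc1 had rank 5268, Hspg2 rank 6237 and Col4a5 rank 6318. Seen from Nid1, Col4a1 had rank 4 and Col4a2 rank 6.

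Spread within groups also set the members apart. The SD of the log2 values within groups was largest for Col4a1 (0.44) and Col4a2 (0.39) and smallest for Lamc1 (0.13) and Hspg2 (0.12), with Nid1 at 0.19. Col4a1, with the widest spread, missed the criteria in WT/Floxed mice at a log2 fold change of 0.56, while Hspg2, with the narrowest, passed at 0.63.

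**Figure D4:**
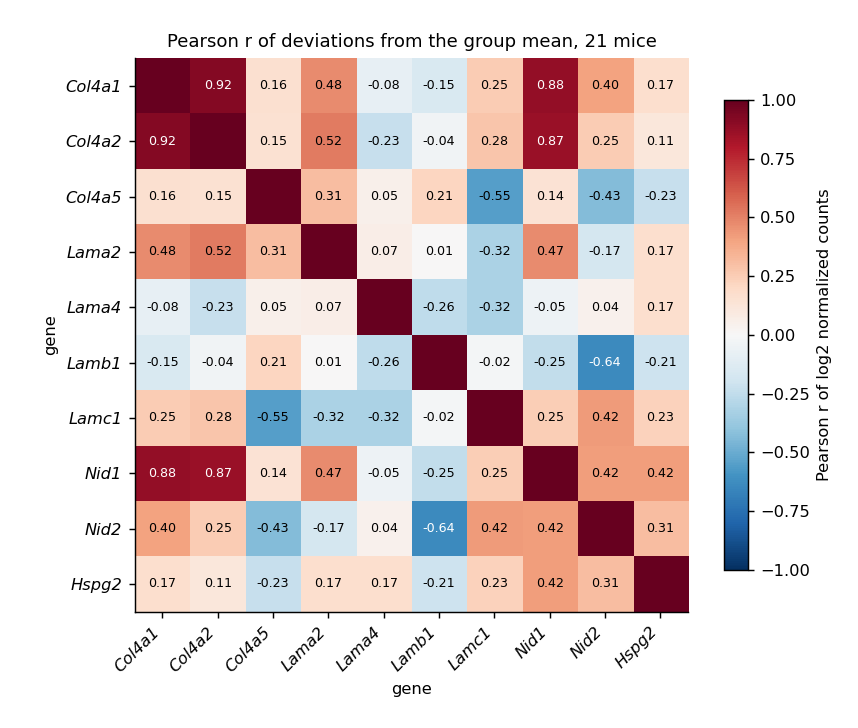
Pearson r between members over the deviations of 21 mice from their group means (both axes list the genes; colour and printed value give r). Col4a1, Col4a2 and Nid1 form a block at 0.87 to 0.92, and Lamb1 and Nid2 have the lowest value, -0.64.

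The members with seed matches were set beside all genes with equal numbers of matches. In WT/Floxed mice the median log2 fold change over all tested genes was 0.00 with no match (11543 genes), 0.04 with 1 (1618 genes), 0.08 with 2 (242 genes) and 0.24 with 3 or more (60 genes). The share called higher rose along the same order, 1.91%, 6.06%, 10.7% and 20%. Col4a1 (0.56) and Lamc1 (0.74) with 1 match, Col4a2 (0.96) with 2 and Col4a5 (0.73) with 3 each lay above the median of their class. The 6 members without TGGTGCT ranged from 0.21 to 0.71, with a median of 0.46. Among them Nid2 and Hspg2 hold the shorter match GGTGCTA, which these classes do not count. In mice labelled SIRT1KO the medians over all genes were -0.01, 0.07, 0.12 and 0.22, and the 4 members with matches had a median of 0.66 and the 6 without one of 0.27. Nid1 and Hspg2 passed the criteria in both genotypes with no TGGTGCT in the annotated 3′ UTR, which says only that these letters are not in this window.

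Further genes of the basement membrane were looked at as a list. Of 24 other components 23 were tested in WT/Floxed mice, 3 were called higher and none lower, with a median log2 fold change of 0.18. The called genes were Lamc3, a second γ chain (1.34 ± 0.35, limma adjusted p = 0.0836), Col4a4, a partner of Col4a5 (0.96 ± 0.26, adjusted p = 0.0904), and Tinagl1, a matricellular protein (0.38 ± 0.12, adjusted p = 0.149). In mice labelled SIRT1KO 24 were tested and 1 was called, Fras1 (0.76 ± 0.19, adjusted p = 0.181), with a median of 0.20. Lamc3 had a log2 fold change of -0.70 ± 0.49 there (adjusted p = 0.642), and Col4a4 one of 0.99 ± 0.27 (adjusted p = 0.207).

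Enzymes and chaperones of collagen assembly included clearer rises. Of 12 genes 3 were called higher in WT/Floxed mice and none lower, with a median of 0.14, against 2.42% of all genes called higher. P3h1, which hydroxylates prolines of collagen, had a log2 fold change of 0.82 ± 0.11 (limma adjusted p = 0.00231). Pxdn, the peroxidase that cross-links collagen IV, had 0.74 ± 0.12 (adjusted p = 0.00694), and Serpinh1, a collagen chaperone, 0.52 ± 0.12 (adjusted p = 0.0464). P3h1 (0.74 ± 0.17, adjusted p = 0.146) and Pxdn (0.64 ± 0.15, adjusted p = 0.156) were called in mice labelled SIRT1KO too, against 1.19% of all genes called higher. For both genes the groups did not overlap in either genotype. Groups apart with LNA29 higher were seen for 0.942% of all genes in WT/Floxed mice and for 3.65% in mice labelled SIRT1KO. Leaving out 1 mouse removed the SIRT1KO calls of P3h1 and Pxdn in 5 of 8 fits each, while their WT/Floxed calls held in all 13.

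Receptors that bind laminin and collagen were tested for 13 of 14 genes in each genotype. Ddr1, a collagen receptor kinase, was called higher in WT/Floxed mice (0.49 ± 0.14, limma adjusted p = 0.118), and Itga6, a laminin-binding integrin chain, in mice labelled SIRT1KO (0.85 ± 0.23, adjusted p = 0.195). Their values in the other genotype were 0.04 ± 0.21 for Ddr1 and 0.08 ± 0.16 for Itga6, neither of which passed. Each was the only receptor called in its genotype, where 2.42% (WT/Floxed) and 1.19% (SIRT1KO) of all genes were called higher.

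In whole liver, more cells of a type and more RNA per cell cannot be told apart. Of 10 stellate cell markers none was called in either genotype (largest, Pdgfrb at 0.26 and Des at 0.28; Pdgfrb met every criterion in WT/Floxed mice but the fold of 1.2, with limma adjusted p = 0.187), their median log2 fold changes were 0.06 and 0.00, and their summed normalized counts ranged from 27951 to 34545 under LNA29 against 25520 to 35155 under saline in WT/Floxed mice and from 32898 to 36108 against 33148 to 38569 in mice labelled SIRT1KO. Of 10 markers of sinusoidal endothelium, Lyve1 was called lower in both genotypes (-0.51 and -1.17) and Stab1 in mice labelled SIRT1KO (-0.53), with sums of 13014 to 21335 against 16272 to 21432 and of 16773 to 18227 against 18183 to 19572. Among 8 macrophage markers Vsig4 (-0.54) and Clec4f (-0.29) were called lower in mice labelled SIRT1KO, with sums of 13057 to 16402 against 16244 to 19527. In WT/Floxed mice none of them was called (largest, Cd5l at -0.60, with sums of 7343 to 40601 against 13479 to 23653). Of these 8 markers 1 had a positive log2 fold change in each genotype, with medians of -0.43 for WT/Floxed and -0.34 for SIRT1KO. Of the 10 endothelial markers 2 were positive in WT/Floxed mice (median -0.13) and 3 in mice labelled SIRT1KO (median -0.06). No gene was called among the 7 tested markers of myofibroblasts and smooth muscle (largest, Cnn1 at 0.81 and 1.25) or the 6 of cholangiocytes (Krt7 at 0.54 and Cftr at 0.50). In the former list 6 of 7 log2 fold changes were positive in each genotype, with a median of 0.29 for WT/Floxed and one of 0.88 for SIRT1KO, beside 0.60 and 0.58 for the members, and sums of 4038 to 7010 against 4189 to 4846 and of 5339 to 8889 against 5315 to 7474. Among 8 hepatocyte markers, all of them present, Apoa1 rose (0.51) and Tat fell (-0.48) in WT/Floxed mice, and none was called in mice labelled SIRT1KO (largest, Cps1 at 0.60). The part of these shifts in the members' values was not tested.

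ZFR were compared with ZLR as a model of obesity and fatty liver. Of the 9 members listed in rats 6 reached the minimum mean of 10 normalized counts and were tested. Called at an adjusted p under 0.05 were 2, Col4a1 and Nid1, both higher in ZFR, against 1.8% of the 8633 genes tested that were called higher and 2.46% called lower. At an unadjusted p under 0.05, 4 members were higher and none lower, against 8.39% and 8.17% of all genes. The minimum kept out Lama2, Lama4 and Nid2, and Lamb1 reached it only through ZFR (15.9 ± 3.70, SD, n = 4, against 8.41 ± 5.64), so counts over the 6 do not speak for all members.

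Col4a1 had 112, 175, 146 and 163 normalized counts in ZFR and 48.2, 53.8, 84.3 and 83.5 in ZLR. Nid1 had 52.9, 73, 56.4 and 51.3 in ZFR and 25.3, 28.1, 31.6 and 20.9 in ZLR. In both genes every ZFR lay above every ZLR. The log2 fold changes were 1.16 ± 0.23 (limma adjusted p = 0.0199) and 1.11 ± 0.21 (adjusted p = 0.0161), and the exact permutation p was 0.0286 for each, the smallest that 4 against 4 allows.

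Col4a2 had 49.3, 78.8, 41.8 and 62.2 in ZFR and 20.3, 26.4, 0 and 31.3 in ZLR. The 0 came from a library of 0.185 M reads, in which 1 read was worth 10.5 normalized counts, and the log2 difference of 2.29 ± 0.97 missed the threshold (limma adjusted p = 0.274). Without the 2 ZLR libraries under 0.5 M reads, a choice made after seeing the data, Col4a2 had 1.25 and passed (adjusted p = 0.026), and Col4a1 (1.51, adjusted p = 0.00269) and Nid1 (1.09, adjusted p = 0.0112) passed as well. Within the flow cell that holds both shallow ZLR libraries, 2 rats against 2, Col4a1 and Nid1 had log2 fold changes of 0.87 and 1.04 and neither passed (adjusted p = 0.373 and 0.48). Within the other flow cell, again 2 against 2, they had 1.45 and 1.19 and both passed (adjusted p = 0.0411 and 0.0444). Single rats decided the calls: no member was called without ZFR replicate 2 or without ZFR replicate 3, 1 was called without ZFR replicate 1, ZFR replicate 4 or ZLR replicate 2, and 3 without ZLR replicate 3.

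Col4a5 (17.5 to 38.8 in ZFR against 10.4 to 17 in ZLR) had a log2 fold change of 0.93 ± 0.34 and did not pass (limma adjusted p = 0.204), though its groups did not overlap. Lamb1 (10.4 to 18.7 against 0 to 11.8) and Lamc1 (32.8 to 74.4 against 3.48 to 87.4) overlapped, with log2 fold changes of 1.34 ± 0.86 and 0.69 ± 0.78. A difference in Lamc1 was not detectable in rats at this depth. Groups without overlap and with ZFR higher were found for 4 of the 6 tested members (Col4a1, Col4a2, Col4a5 and Nid1) and for 7.8% of all genes tested, and none had ZFR lower (6.68% of all genes).

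Some other genes stood beside these in ZFR. Acta2, smooth muscle actin, was 52.9 ± 8.91 (SD, n = 4) in ZFR and 11.4 ± 6.69 in ZLR (log2 fold change 2.24 ± 0.37, limma adjusted p = 0.00768), Itgb1, the β chain of most matrix-binding integrins, had 0.57 ± 0.12 (adjusted p = 0.0302), and Lama3, an epithelial laminin α chain, 1.55 ± 0.35 (adjusted p = 0.0373). The sum of the 8 myofibroblast and smooth muscle markers was 163 to 196 in ZFR and 34.4 to 105 in ZLR, and that of the stellate markers 538 to 681 and 457 to 634. Stab2 of the sinusoidal endothelium was also called higher (1.16 ± 0.25, adjusted p = 0.033), the hepatocyte genes Cps1 (-0.58) and Ttr (-0.43) were called lower, and no gene of collagen assembly (10 tested) was called. Their part in the rise of Col4a1 and Nid1 was not tested.

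**Figure D5:**
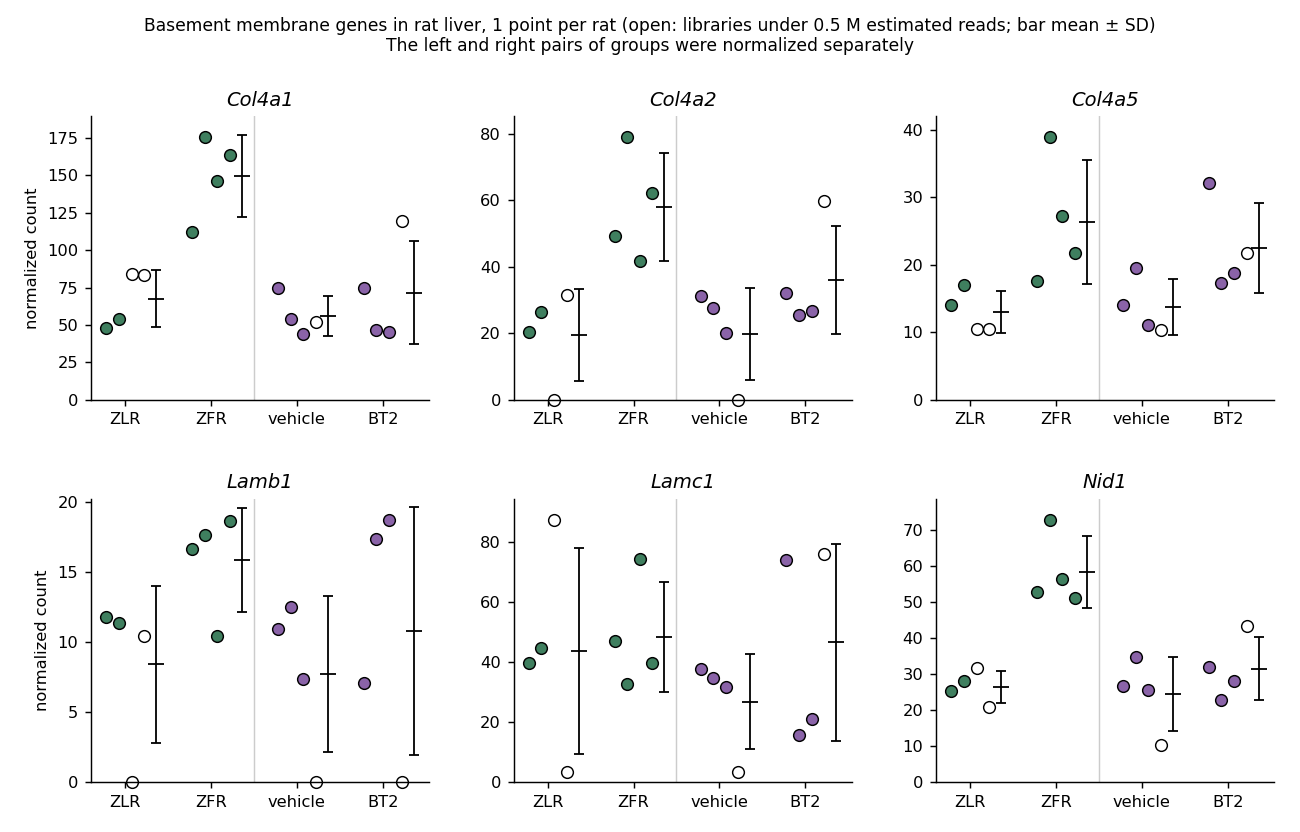
Normalized counts (linear axes from 0) of the 6 members with the highest rat counts in each of 16 livers; open points are libraries under 0.5 M estimated reads, bars are mean ± SD (n = 4), and the left and right pairs of groups were normalized separately. All ZFR points lie above all ZLR points for Col4a1, Col4a2, Col4a5 and Nid1, and BT2 and vehicle overlap in every panel.

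No member passed the test between BT2-treated and vehicle-treated ZFR. Of the 9 members listed 5 were tested and none was called, as none of the 8405 genes was (0% higher and 0% lower by limma at an adjusted p under 0.05). At an unadjusted p under 0.05, 164 genes were higher (1.95%) and 168 lower (2%), and no member was among them. No member had groups that did not overlap with BT2 higher, against 1.52% of all genes, or with BT2 lower (1.44%). Col4a1 had 74.7, 46.7, 45.5 and 120 normalized counts with BT2 and 74.9, 53.7, 44 and 51.6 with vehicle. Only the shallowest BT2 library (0.375 M reads) lay above the vehicle range. Its log2 fold change was 0.26 with a 95% confidence interval of -0.43 to 0.95 (limma adjusted p = 0.921). Those of Col4a2, Col4a5, Lamc1 and Nid1 were 1.56 (-0.55 to 3.67), 0.68 (-0.12 to 1.47), 0.85 (-0.79 to 2.49) and 0.44 (-0.40 to 1.28), so changes of several-fold in Col4a2 or Lamc1 were not detectable at this depth. Without the 2 libraries under 0.5 M reads the median log2 fold change was 0.03 over the 6 members then tested, in place of 0.68 over 5.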

How the data were processed

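Livers of 21 mice and 16 rats were grouped by their labels. The members and gene lists were chosen with earlier results of these data known. Per the methods of the study, the authors deposited a normalized signal: poly(A)-selected reads were aligned with STAR (mm10 or rn6), gene counts were estimated with Salmon and divided by DESeq2 size factors, separately for each table. Between 69.7% and 89.9% of low values were whole multiples of 1 read (tolerance 0.01), so counts were not recovered and no count model was run. The authors excluded 1 floxed saline-treated mouse. Reads per library were estimated from the value of 1 read, and depth limits low rat genes most.

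Entries without a name (381 in mice, 201 in rats) or with a repeated name (130 and 4523) were left out, which held 0.0144% or less of mouse counts for the first and 2.17% or less of rat counts for the second. Tests used limma 3.58.1 in R 4.3.3, moderated with a mean-variance trend, after adding a pseudocount of 1 and taking log2, over genes with a mean of at least 10, with Benjamini-Hochberg adjustment over all of them. Mouse calls needed p under 0.05, adjusted p under 0.2, a mean above 50 and a fold above 1.2, and rat calls an adjusted p under 0.05. The response of both genotypes was compared by an interaction term. Single members and partner ratios were compared by two-sided exact permutation tests. Fold changes on this scale are smaller than those of the values for low genes, but larger than the fold of the means where a library is listed at 0. p-values cover the spread between these animals. Named are all 10 members, of every other list the called genes (at most 4) or, where no gene passed, the one with the largest log2 fold change, and the 5 genes most correlated with Col4a1. Genes called in rats were named after their values were seen. Replicate numbers did not pair animals, as correlations of same-numbered deviations ran from -0.28 to 0.24. Other settings tried were TMM scaling, no minimum mean, a pseudocount of 10, quality or precision weights, flow cell, background or replicate number as a term, WT or floxed mice alone, and each animal left out. Libraries above 0.5 M reads, single flow cells, a replicate block for the interaction and a pseudocount of 10 for the permutation tests were added after seeing the data. The fit was also run on simulated data with known changes, drawn without background differences between animals. No result here rests on that run. Seed matches were found with Python 3.11.15 in 1 transcript per gene, preferring APPRIS principal ones with a 3′ UTR, and 13463 of 15811 genes tested in WT/Floxed mice matched by symbol.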

Additional observations from a re-analysis of the deposited data

Results flagged for a closer look

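Lamb1 was listed at 0 in ZLR replicate 3, while the other 3 ZLR had 10.4 to 11.8 normalized counts. The gap to the nearest other rat was 0.885 of the range of the group. The library held 0.185 M estimated reads, and 1 read was worth 10.5 normalized counts, so a value of 10.5 would be 1 read there. It was the only such value among the 76 combinations of a member and a treatment group that were examined. Chance alone gives about 1 in every 20 combinations, so 1 value among 76 is no more than chance gives. Leaving out both ZLR libraries under 0.5 M reads did not bring Lamb1 past the limit.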

How the results depend on the processing

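In WT/Floxed mice 5 members were called, against 8 with the background as a covariate and 3 among WT mice alone; with a replicate block, although the numbers did not pair the mice, 2 were called (Col4a2 and Lamc1). Over all genes the background covariate gave 552 called higher and 436 lower. In mice labelled SIRT1KO 5 were called, against 3 with no minimum mean, 2 with the flow cell as a covariate and 0 at an adjusted p under 0.05; leaving out 1 mouse gave 1 to 5, and the replicate block 4. In ZFR against ZLR 2 were called, against 1 with no minimum mean, 1 with a replicate block and 0 within flow cell 1 alone; leaving out 1 rat gave 0 to 3. Of the partner ratios 1 passed, and leaving out 1 animal gave 1 to 2, with 2 only without WT/Floxed saline replicate 3. Calls of genes outside the members also hung on single mice. In mice labelled SIRT1KO those of Fras1, Itga6 and Clec4f were each lost in 7 of 8 fits that left out 1 mouse. In WT/Floxed mice Tinagl1 lost its call in 7 of 13 such fits, Lyve1 in 6 and Ddr1 in 5. Tat, a hepatocyte marker, reversed between BT2 and vehicle within flow cell 1 (-1.37 against 0.15 with all rats). The causes were not tested. No member was called lower under any setting tried, and no member's response differed between genotypes under any setting tried. Counts over all genes moved by over 1.5 times in several settings. In WT/Floxed mice 383 were called higher and 305 lower, against 238 and 158 with no minimum mean, 658 and 650 with sample quality weights, 39 and 17 with a replicate block, 133 and 73 at an adjusted p under 0.05, and 56 and 32 among WT mice alone. In mice labelled SIRT1KO 189 and 108 were called, against 113 and 47, 443 and 361, 94 and 51, and 34 and 3 in the first 4 of these settings, and 76 and 27 with the flow cell as a covariate. In ZFR 155 and 212 were called, against 117 and 124 with no minimum mean, 607 and 562 with sample quality weights, 87 and 134 with a replicate block and 1128 and 852 with precision weights. Rat depth, down to 0.185 M reads, leaves Lama2, Lama4 and Nid2 below the minimum mean.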
